A study of Mus musculus with 2 samples.

Results

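Chemokines and their receptors were read as one gene family in small intestinal epithelial cells of miR-215-/- mice and of miR-215+/+ mice. The members are the genes listed under a Ccl, Cxcl, Cx3cl or Xcl symbol, or under a Ccr, Cxcr, Cx3cr, Xcr or Ackr symbol. Added to them are the related receptors Ccrl1, Ccrl2, Ccbp2 and Darc, of which all but Ccrl2 are older names. This gave 62 of the 23284 genes listed, 39 ligands and 23 receptors. mRNA was sequenced in 1 knockout library and 1 wild-type library. The sources used here do not give the strain, sex, age or number of animals behind a library, nor how the epithelium was isolated. With 1 library per genotype there is no replicate check and hence no p-value. "Higher" and "lower" say where the knockout value stood against the wild-type one. The title of the series places CXCL12 downstream of miR-215.

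Chemokines are small secreted proteins that guide leukocytes by binding G protein-coupled receptors, and they are classed by the spacing of their first cysteines into the CC, CXC, CX3C and C families. Atypical receptors bind chemokines without G protein signalling and clear or redistribute them. In the small intestine the epithelium secretes CCL25, CCL28 and CCL20 toward lymphocytes, B cells and plasma cells, stromal and lymphatic cells make CXCL12, CXCL13, CCL19 and CCL21, and intraepithelial lymphocytes make CCL5 and XCL1.

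The unit is FPKM, which scales sequenced fragments by transcript length and by depth. The steps between low values show how much 1 fragment is worth, 0.0992 FPKM per kilobase of effective length in the knockout library and 0.103 in the wild-type one. The effective length is the transcript length less 220 nt. Fragment numbers given below are estimates on that basis, and each ratio has an exact 95% Clopper-Pearson interval made from them, called the counting interval. Such an interval covers counting error only and leaves out any spread among mice or cell isolations. Mir215 itself was listed at 0 in the knockout library and at 137 FPKM in the wild-type library, but at 112 nt it is shorter than the fragments, so its value could not be turned into a fragment number.

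miR-215 shares its seed, bases 2 to 8, with miR-192, which is why both mature sequences are shown from the RefSeq annotation of GRCm38.p6, with the seed in capitals. miR-215-5p lies at chr1:185313610-185313630 on the plus strand and miR-192-5p at chr19:6264857-6264877 on the plus strand.
mmu-miR-215-5p: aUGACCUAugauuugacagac
mmu-miR-192-5p: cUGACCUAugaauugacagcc

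The DNA letters that pair with the whole seed, TAGGTCA, were searched on the sense strand in the longest annotated 3' UTR of each gene. They were found in 1 of 59 members with such a UTR, 1.69%, against 6.39% of 21005 genes. The member was Cxcl10, an interferon-inducible ligand. The longest 3' UTR of Cxcl12, 5188 nt, held neither TAGGTCA nor AGGTCA, the match to bases 2 to 7, but held TAGGTC, the match to bases 3 to 8, once. AGGTCA was found in 15 of the 59 members, beside 27.8% of the genes, and TAGGTC in 4 of the 59, Cxcl10, Cxcl12, Cxcl16 and Xcr1, beside 15.8% of the genes. TAGGTCA contains both of the shorter words. Cxcl16, the transmembrane chemokine of the epithelium, held TAGGTC 11 times in a UTR of 1421 nt. Sites of Cxcl10, Cxcl12 and Cxcl16 are shown, for the whole seed match, the gene in the series title and the repeated word, with the matching letters in capitals. The Cxcl10 site is at chr5:92347643-92347672 on the minus strand, the Cxcl12 site at chr6:117178628-117178657 on the plus strand and the first Cxcl16 site at chr11:70455052-70455081 on the minus strand of GRCm38.
Cxcl10 site: gaggtgccttctTAGGTCAtacattcctag
Cxcl12 site: acaggaggagccTAGGTCtgaagtcagtgt
Cxcl16 site: actacgtatcccTAGGTCtcctgccttccc
A match is a description of letters, and its absence says only that these letters are not in this window.

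The enterocyte gene Fabp2 was at 15926 FPKM in the knockout library and 18795 in the wild-type library, and all 9 epithelial markers looked for were present in both, as the label of the cells says. T cell, B cell, macrophage and stromal markers were present at lower levels, so neither library held epithelium alone. Of the 62 members, 51 were above 0 in the knockout library and 49 in the wild-type library, and 9 were listed at 0 in both. Of all 23284 genes, 15700 and 15445 were above 0, and 6893 were at 0 in both. At 1 FPKM or more there were 27 members in the knockout library and 20 in the wild-type one. No receptor reached 5 FPKM in either library, whereas 6 ligands in the knockout library and 11 in the wild-type library did. No count over all genes stands beside those at 1 and 5 FPKM, so they are not read as a result about the family. Ccl25, Ccl5, Ccl6 and Cx3cl1 were the 4 most abundant members in both. Ccl25 alone took 56.0% of the summed FPKM of all ligands in the knockout library and 61.1% in the wild-type library, and Ccl5 took 21.8% and 14.3%. The summed FPKM of all members was 1081 in the knockout library and 1182 in the wild-type library, a ratio of 0.915, beside 0.911 for all genes and 0.913 for 9 epithelial markers such as Fabp2, Krt20 and Epcam.

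**Figure D1:**
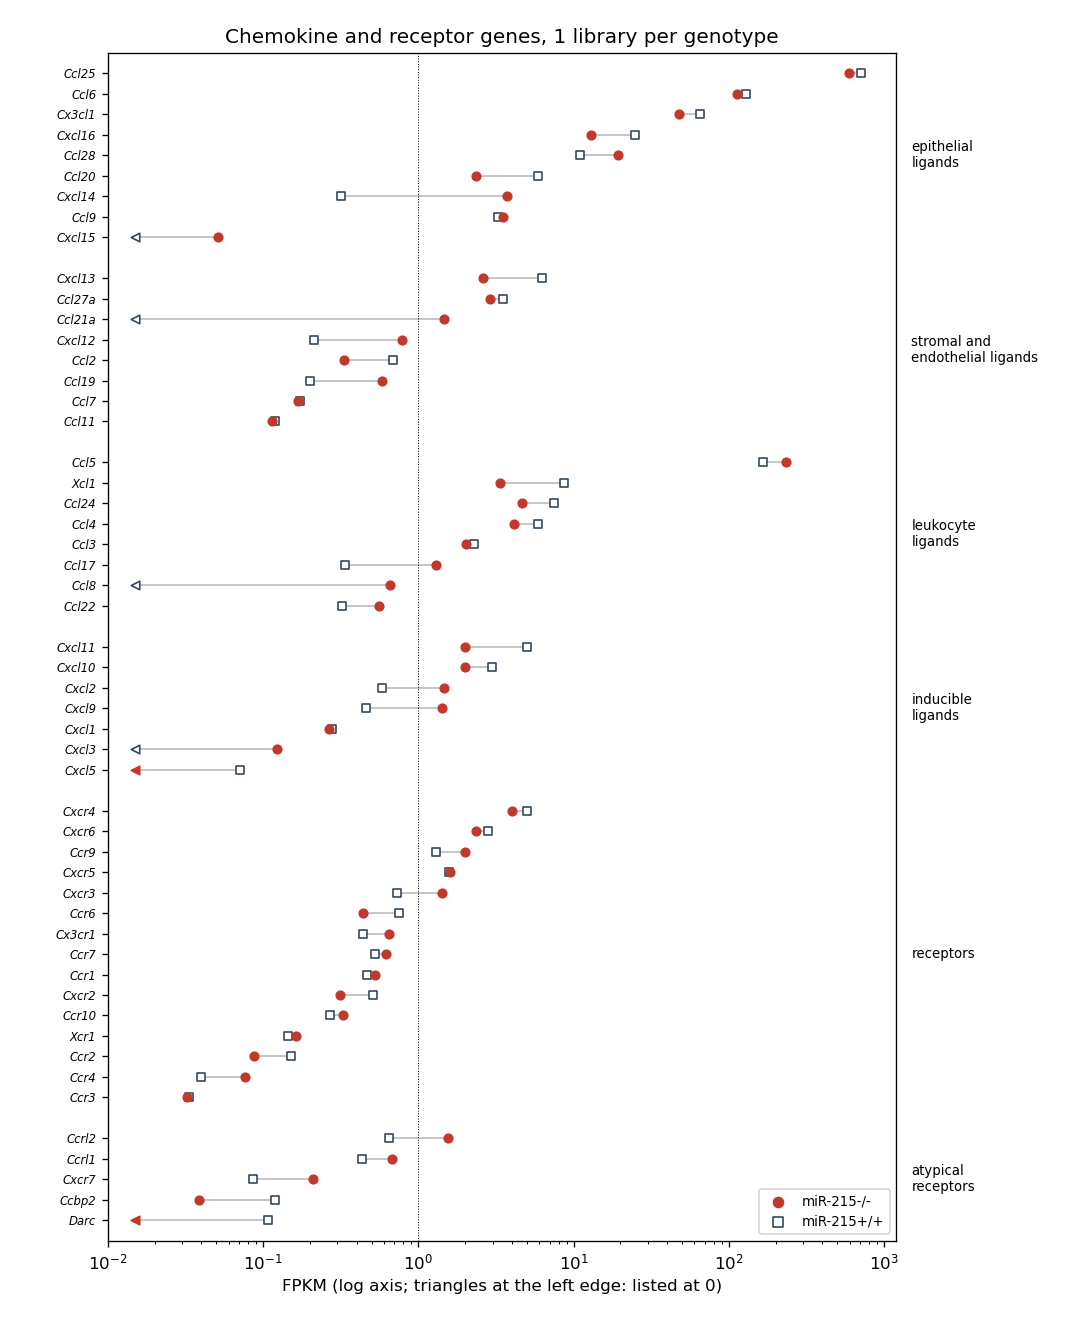
FPKM (log axis) of 52 of the 53 members above 0 in at least 1 library, in the miR-215-/- library (red circles) and the miR-215+/+ library (open squares), grouped by the main source of the ligand or the kind of receptor; triangles at the left edge mark genes listed at 0 and the dotted line is 1 FPKM. Ligands span 0.0515 FPKM (Cxcl15, knockout library) to 712 FPKM (Ccl25, wild-type library), and no receptor passes 5 FPKM.

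Differences in size were read first on the log2(FPKM + 1) scale, keeping genes that reached 1 FPKM in either library. This scale understates the difference of low genes. Among the 27 members kept, 2 were at least 2-fold higher in the knockout library, Cxcl14 and Ccl21a, and 3 at least 2-fold lower, Ccl20, Cxcl13 and Xcl1. Those are 7.41% and 11.1% of the members kept, beside 1.34% and 2.04% of all 11504 genes kept, and in either direction 18.5% beside 3.38%. Each of the 5 rested on at most 80 fragments in both libraries together, and the share of all genes kept is not matched for depth. Cxcl14 and Ccl21a passed the minimum of 1 FPKM through the knockout library alone. These shares are therefore not read as a result about the family. Cxcl11 was just short of the limit, at a log2 difference of -0.99. The median log2 difference of the members kept was -0.18, with 12 above 0 and 15 below, beside -0.05 for all genes kept. Of all 11504 genes kept, 5059 were above 0 and 6445 below, a similar split, so the split is no result about the family. Raising the knockout values to the same summed FPKM moved the median of all genes from -0.05 to 0.07 and turned their split of higher to lower from 154 and 235 into 209 and 185. Under that scaling Ccl20 (-0.95) and Cxcl13 (-0.91) were no longer 2-fold lower, and the median of the members was -0.06.

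Counting error alone gives a second view. Of the 36 members with at least 10 estimated fragments in both libraries together, 8 had a counting interval above 1 and 9 below 1. Those 22.2% and 25% are near the 18.6% and 26.7% of all 13087 genes of that depth, and 47.2% in either direction is near 45.3%, so these counts are no result about the family. Without the added 1, the FPKM ratio was 2-fold or more in the higher direction for 6 of the 36 members and in the lower direction for 4. Those are 16.7% and 11.1%, beside 5.27% and 3.73% of all genes with at least 10 fragments. Members and genes were not matched for depth above that limit, so these shares too are no result about the family.

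**Figure D2:**
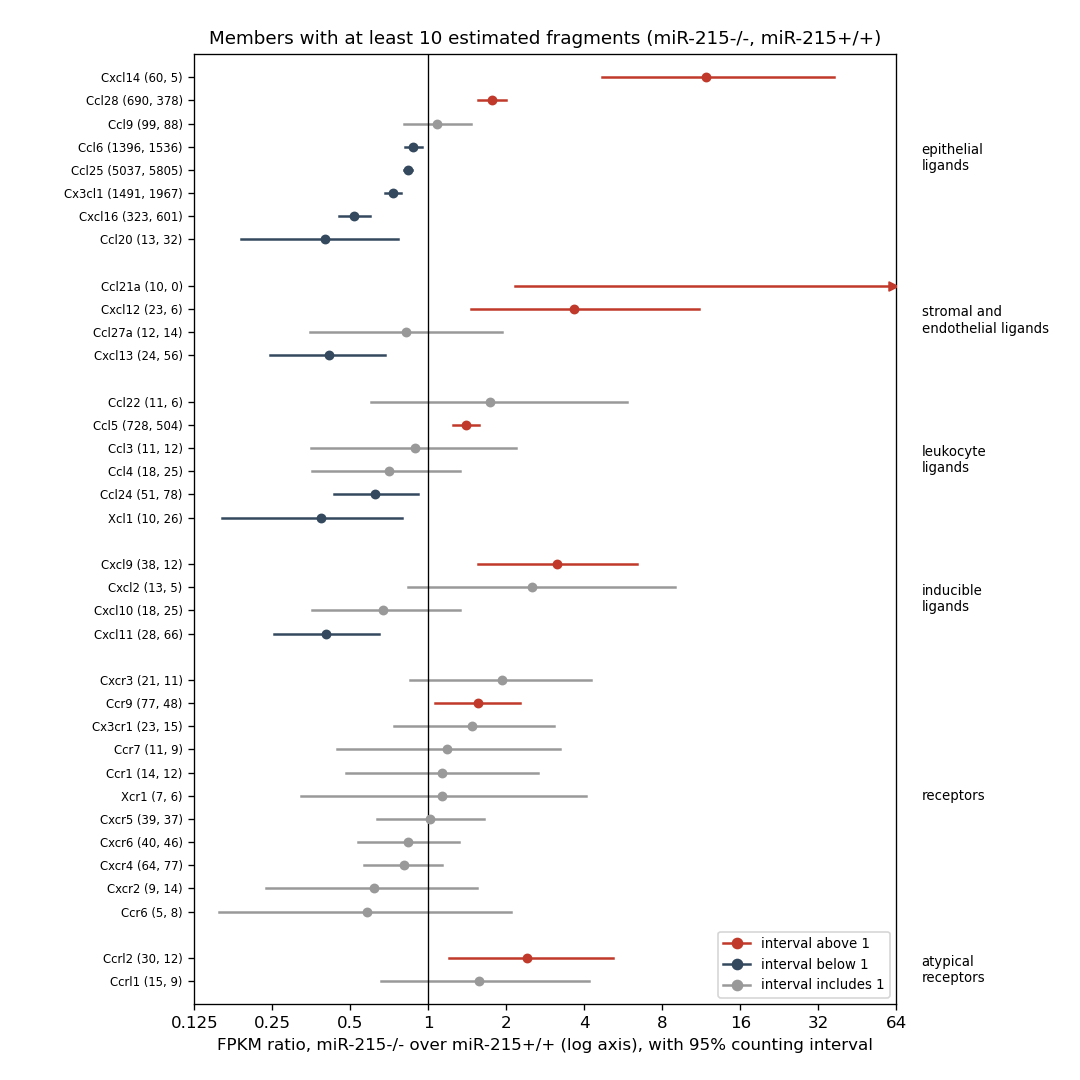
FPKM ratio of the miR-215-/- library over the miR-215+/+ library (log axis) with the 95% counting interval for 35 of the 36 members of at least 10 estimated fragments, with those fragments in parentheses, knockout first; colour shows whether the interval lies above 1 (8 members), below 1 (9) or includes 1 (18). The arrow of Ccl21a marks a gene listed at 0 in the wild-type library.

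Epithelial ligands went in both directions. Of the 10 genes placed in this group, 8 had at least 1 FPKM in a library. Cxcl14 and Ccl28 were higher in the knockout library, Ccl25, Ccl6, Cx3cl1, Cxcl16 and Ccl20 were lower, and the interval of Ccl9 included 1. The median log2 difference of the 8 was -0.22. The summed level of the group was 799 FPKM in the knockout library and 953 in the wild-type library.

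Ccl25 (chromosome 8, 4325210 to 4360020), the ligand of CCR9 that recruits T cells to the small intestine, was at 595 FPKM in the knockout library and 712 in the wild-type library. The ratio was 0.836 with a counting interval of 0.805 to 0.868, resting on about 5037 and 5805 fragments. Its interval stayed below 1 when the sums were made equal. Elavl1, on the opposite strand, overlaps its exons by up to 181 nt. Ccl28 (chromosome 13, 119623819 to 119654359), the ligand of CCR10 that attracts IgA plasma cells, differed the other way, at 19.4 FPKM in the knockout library and 11.1 in the wild-type library. Its ratio was 1.76 (1.55 to 2.0) on about 690 and 378 fragments. The J chain gene of plasma cells, listed as Igj, was also higher in the same library, at 58.6 FPKM beside 20.3, while the other 5 kept markers of B and plasma cells had log2 differences below 0. The part of these cells in the value of Ccl28 was not tested.

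Both chemokines with a transmembrane mucin stalk were lower. Cxcl16 (chromosome 11, 70453983 to 70459984), which binds CXCR6 on T cells, was at 12.9 FPKM in the knockout library and 24.95 in the wild-type library, a ratio of 0.518 (0.451 to 0.594) on about 323 and 601 fragments. Its exons overlap by up to 552 nt those of Zmynd15 on the opposite strand, which was at 1.22 and 2.77 FPKM, and whether the authors counted by strand is not stated in the labels, so part of the value may be of that gene. Cx3cl1 (chromosome 8, 94772009 to 94782427), or fractalkine, which binds CX3CR1 on macrophages, was at 47.8 FPKM in the knockout library and 65.5 in the wild-type library, a ratio of 0.730 (0.682 to 0.781). The proteases that shed these ligands, Adam10 and Adam17, belong to a list of cleavage and presentation genes described further on.

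Ccl20, the CCR6 ligand made by the epithelium over lymphoid follicles, was at 2.34 FPKM in the knockout library and 5.88 in the wild-type library. The ratio of 0.398 (0.188 to 0.766) rested on about 13 and 32 fragments. Markers of follicle-associated epithelium did not move as one: their summed level was 52.8 FPKM in the knockout library and 48.9 in the wild-type library, Tnfaip2 was at 1.12 and 2.04 FPKM, Spib at 6.67 and 7.48, and Marcksl1 at 37.8 and 32.3. Ccl9, which the same epithelium makes in mice, was at 3.53 FPKM in the knockout library and 3.26 in the wild-type library (ratio 1.08, interval 0.805 to 1.46). Ccl6, a mouse chemokine related to Ccl9 and the third most abundant member, was at 114 and 129.7 FPKM. Its interval, 0.814 to 0.942, included 1 once the sums were made equal.

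Cxcl14 (chromosome 13, 56288643 to 56296551), made by epithelia and fibroblasts, had the highest ratio of the members that were above 0 in both libraries. It stood at 3.72 FPKM in the knockout library and 0.317 in the wild-type library, about 60 and 5 fragments, a ratio of 11.8 (4.69 to 36.9). Its rank among the members was 10 in the knockout library and 35 in the wild-type library. Its placement among the epithelial ligands is from background. Kept markers of fibroblasts, given next, also had log2 differences above 0, and the part of these cells in the value of Cxcl14 was not tested. Cxcl15 rested on 1 fragment in the knockout library and none in the wild-type library, and Cxcl17 was listed at 0 in both.

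Stromal and endothelial ligands were low in both libraries, with a summed level of 8.89 FPKM in the knockout library and 11.1 in the wild-type library over 12 genes, 4 of them listed at 0 in both. Cxcl12 and Ccl21a were higher in the knockout library and Cxcl13 was lower. Markers of stromal cells differed between the same libraries. All 11 kept markers of fibroblasts and smooth muscle had log2 differences above 0, and the list of 13 summed to 56.9 FPKM in the knockout library and 19.8 in the wild-type library, with none at 0 in both. Pdgfra, which marks fibroblasts, rested on about 41 fragments in the knockout library and 3 in the wild-type library, and Dcn was at 6.66 and 2.87 FPKM. Blood endothelial markers summed to 7.38 FPKM in the knockout library and 2.47 in the wild-type library, but not all went one way. Of the 4 kept, 3 had log2 differences above 0, the largest that of Plvap, at 3.77 and 0.454 FPKM. Tek was lower, at 0.156 and 1.02 FPKM. Fewer cells of a type and less RNA per cell cannot be told apart in bulk RNA, and the part of these cells in the values of the ligands was not tested.

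Cxcl12 (chromosome 6, 117168535 to 117181367), which holds CXCR4-bearing leukocytes near the stroma that makes it, was at 0.779 FPKM in the knockout library and 0.214 in the wild-type library. The ratio of 3.65 rested on about 23 and 6 fragments and had a counting interval of 1.46 to 11.1. With the shortest annotated transcript, 1878 nt, it would be 13 and 3 fragments and an interval of 1.15 to 22.8, and with the longest, 5627 nt, 42 and 11 fragments and 1.86 to 7.92. Cxcl12 was below 1 FPKM in both libraries and ranked 28 of the 62 members in the knockout library and 38 in the wild-type library. It made up 0.0733% of the summed ligand FPKM in the knockout library and 0.0183% in the wild-type library. Ratios in the list of 13 fibroblast and smooth muscle markers ran from 1.09 (0.776 to 1.54) for Pdgfrb to 22.3 (10.1 to 53.9) for Myh11. With the median transcript length the interval of Cxcl12 overlapped both of these intervals, and with the longest transcript it overlapped neither. The part of these cells in the value of Cxcl12 was not tested.

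Cxcl13 (chromosome 5, 95956951 to 95961068), the B cell attractant of follicular stroma, was at 2.59 FPKM in the knockout library and 6.24 in the wild-type library, a ratio of 0.415 (0.245 to 0.677) on about 24 and 56 fragments. Its direction was thus opposite to that of Cxcl12. The follicular dendritic cell marker Cr2, which B cells also express, was at 0.757 and 0.957 FPKM (ratio 0.791, interval 0.524 to 1.19). Ccl21a, the CCR7 ligand of lymphatic vessels, was at 1.45 FPKM in the knockout library, about 10 fragments, and listed at 0 in the wild-type library. Against a floor of 3 fragments in that library, 0.475 FPKM, it was at least 3.05-fold higher, taking the knockout value as exact, and its counting interval began at 2.16. Its near-identical copies Ccl21b and Ccl21c were at 0 in both, and the labels do not say to which copy a fragment that fits several was counted, so the value is uncertain. The lymphatic marker Lyve1 was at 2.68 FPKM in the knockout library and 2.27 in the wild-type library (1.18, 0.822 to 1.69), and the 5 lymphatic markers summed to 3.63 and 2.92 FPKM.

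The remaining ligands placed in this group were too low to compare. Ccl19, the other CCR7 ligand, rested on about 3 fragments in the knockout library and 1 in the wild-type library, and the monocyte attractant Ccl2 on 2 and 4. The monocyte attractant Ccl7 and the eosinophil attractant Ccl11 had 1 fragment in each library. Ccl27a was at 2.88 FPKM in the knockout library and 3.51 in the wild-type library (0.820, 0.349 to 1.92). It has annotated transcripts of 350 to 841 nt and a close copy, Ccl27b, listed at 0 in both, so its value is uncertain. The placement of Ccl27a among the stromal ligands is from background and was not tested, and its value enters the summed level of that group. Ccl12, the eotaxin Ccl26 and Ccl21b and Ccl21c were listed at 0.

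**Figure D3:**
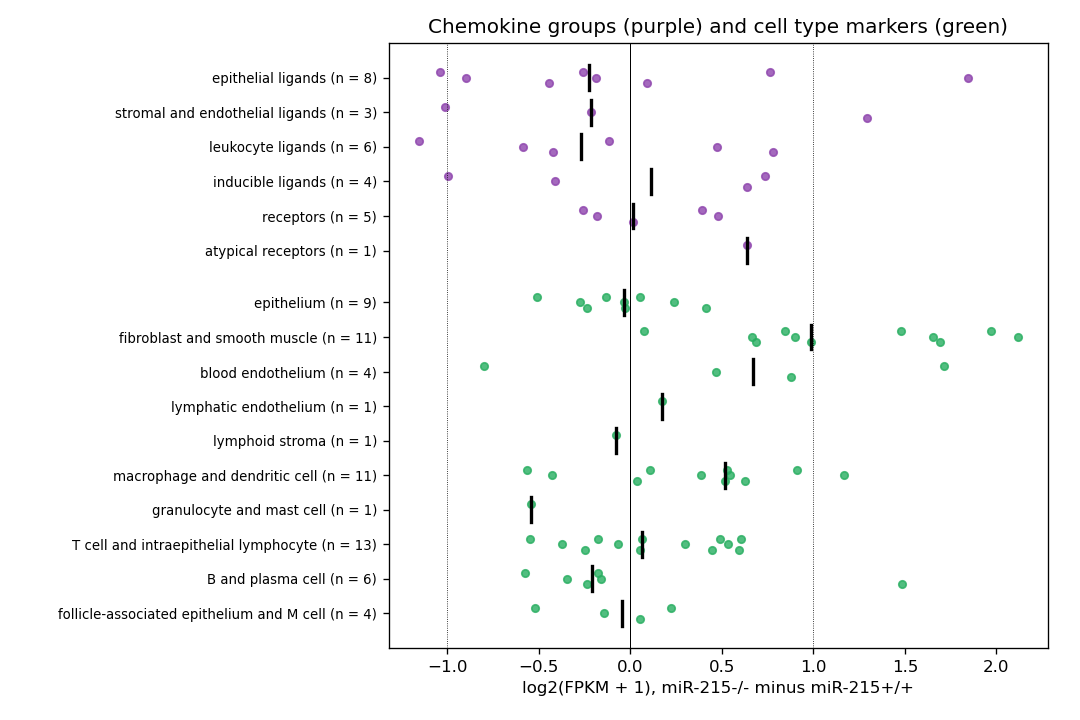
Difference of log2(FPKM + 1), miR-215-/- minus miR-215+/+, of each member (purple) and each cell type marker (green) that reached 1 FPKM in either library; the black bar is the median of a group and the dotted lines are 2-fold. All 11 fibroblast and smooth muscle markers lie above 0, whereas every group of ligands has genes on both sides of 0.

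Leukocyte ligands were led by Ccl5. Of 9 genes in the group 6 were kept, with a median log2 difference of -0.27, 2 above 0 and 4 below. Ccl5 (chromosome 11, 83525778 to 83530518), which cytotoxic and intraepithelial T cells store and release, was at 232 FPKM in the knockout library and 166 in the wild-type library. The ratio was 1.39 (1.24 to 1.56) on about 728 and 504 fragments. Xcl1 (chromosome 1, 164931644 to 164935527), which the same lymphocytes make to attract cross-presenting dendritic cells, differed the other way, at 3.36 FPKM in the knockout library and 8.73 in the wild-type library, a ratio of 0.385 (0.159 to 0.794) on about 10 and 26 fragments.

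T cell markers did not move as one either. The 13 markers summed to 471 FPKM in the knockout library and 451 in the wild-type library, with 8 log2 differences above 0 and 5 below. The 4 largest differences went both ways. Cd8b1 (ratio 1.83, interval 1.06 to 3.28), Thy1 (1.73, 1.10 to 2.67) and Cd4 (1.93, 1.18 to 3.21) were higher, and Cd3d (0.642, 0.464 to 0.875) was lower. Cd8a was at 17.3 FPKM in the knockout library and 12.05 in the wild-type library (1.44, 1.25 to 1.66). Gzma, the granzyme of these lymphocytes, was at 261 and 250.5 FPKM (1.04, 0.974 to 1.12). Cd3g was at 29.8 and 38.9 FPKM (0.767, 0.644 to 0.910). Whether the number of lymphocytes had a part in the values of Ccl5 and Xcl1 was not tested.

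Ccl3 and Ccl4, attractants of T cells and macrophages that lie beside Ccl5 on chromosome 11, had intervals that included 1. Ccl3 was at 2.04 FPKM in the knockout library and 2.29 in the wild-type library (0.889, 0.353 to 2.19) and Ccl4 at 4.15 and 5.90 FPKM (0.704, 0.356 to 1.32). Ccl24, an eosinophil attractant of macrophages that binds CCR3, was lower, at 4.66 FPKM in the knockout library and 7.50 in the wild-type library (0.622, 0.434 to 0.908, about 51 and 78 fragments). The eosinophil marker Prg2 was at 0.470 and 1.14 FPKM (0.413, 0.0689 to 1.81). The dendritic cell chemokines that bind CCR4 were scarce. Ccl22 was at 0.555 and 0.320 FPKM (1.73, 0.599 to 5.81), and Ccl17 rested on about 4 fragments in the knockout library and 1 in the wild-type library. The macrophage ligand Ccl8 rested on 2 fragments and none, and Ccl1 was at 0 in both. Macrophage and dendritic cell markers summed to 114 FPKM in the knockout library and 101 in the wild-type library. Of 11 kept markers 9 were above 0, among them C1qa at 12.3 and 4.93 FPKM. The other 2 had intervals below 1, Fcer1g at 16.5 and 24.8 FPKM (0.483 to 0.889) and Tyrobp at 22.1 and 30.1 (0.539 to 0.998).

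Ligands induced by interferon gamma share the receptor CXCR3 and lie within 44 kb of each other on chromosome 5, yet their values went apart. Cxcl9 was at 1.43 FPKM in the knockout library and 0.456 in the wild-type library, a ratio of 3.13 (1.56 to 6.41) on about 38 and 12 fragments. Cxcl11 was at 2.01 FPKM in the knockout library and 5.0 in the wild-type library, a ratio of 0.402 (0.253 to 0.645) on about 28 and 66 fragments. The counting intervals of these ligands did not overlap. Cxcl10, the member with the seed match, was at 1.99 and 2.99 FPKM, and its interval, 0.356 to 1.32, included 1 and overlapped that of Cxcl11. Exons of Cxcl11 are covered by Gm2673 and those of Cxcl10 by Art3 on the opposite strand, by up to 1582 and 133 nt. Cxcr3 itself, the receptor of T helper 1 cells, was at 1.41 FPKM in the knockout library and 0.733 in the wild-type library (1.93, 0.848 to 4.22). In the list of 6 interferon gamma response genes 4 had log2 differences above 0. Gbp2, a guanylate-binding protein, was at 7.03 and 3.51 FPKM, and the transcription factor Irf1 at 158 and 166.

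Neutrophil attractants of the CXC family were near the limit of detection. Cxcl2, which binds CXCR2, was at 1.47 FPKM in the knockout library and 0.586 in the wild-type library, a ratio of 2.50 with an interval of 0.838 to 8.97 on about 13 and 5 fragments. Cxcl1 had 2 fragments in each library, Cxcl3 1 in the knockout library alone and Cxcl5 1 in the wild-type library alone. Cxcr2 was at 0.314 FPKM in the knockout library and 0.506 in the wild-type library (0.619, 0.236 to 1.54) and Cxcr1 at 0 in both. Of the neutrophil markers, S100a8, S100a9, Mpo and Elane were at 0 in both libraries.

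The promoters of Ccl20 and Cxcl2 are shown because both genes are textbook targets of NF-kB and their FPKM ratios lay on different sides of 1. The window runs from 250 bases before to 50 bases after the RefSeq gene start, on GRCm38.p6. A form of the NF-kB site, GGG followed by any 2 bases and TTTCC, was searched on both strands and is in capitals. It was found in 1.63% of 32851 promoters. Counted by gene, it was in a promoter of 6 of 46 members and of 1.89% of 27025 genes, and the members were Ccl20, Ccl9, Ccr3, Cxcl1, Cxcl2 and Cxcl3. Ccl20 lies at chr1:83116516-83116815 and Cxcl2 at chr5:90903649-90903948, both on the plus strand.
Ccl20 promoter: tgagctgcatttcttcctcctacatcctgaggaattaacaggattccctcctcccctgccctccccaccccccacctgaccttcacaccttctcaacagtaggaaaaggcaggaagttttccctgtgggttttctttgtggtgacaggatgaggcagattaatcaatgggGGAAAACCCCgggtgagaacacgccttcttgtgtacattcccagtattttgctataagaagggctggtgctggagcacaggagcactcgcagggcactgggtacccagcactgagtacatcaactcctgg
Cxcl2 promoter: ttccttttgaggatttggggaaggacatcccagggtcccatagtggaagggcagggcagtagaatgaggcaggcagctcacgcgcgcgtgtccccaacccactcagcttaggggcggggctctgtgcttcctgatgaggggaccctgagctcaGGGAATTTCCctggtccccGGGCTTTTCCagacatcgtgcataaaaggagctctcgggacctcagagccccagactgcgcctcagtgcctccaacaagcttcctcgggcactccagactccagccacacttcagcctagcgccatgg
Ccl20 held 1 copy of the motif, on the minus strand, and Cxcl2 held 2, both on the plus strand. The interval of Ccl20 was below 1 and that of Cxcl2 included 1. Of the 8 kept genes in a list of NF-kB and IL-17 response genes, 3 had log2 differences above 0 and 5 below. The cytokine gene Tnf was at 0.631 FPKM in the knockout library and 1.45 in the wild-type library (0.433, 0.154 to 0.970), the NF-kB subunit Relb at 48.0 and 69.0 (0.695, 0.638 to 0.755) and the inhibitor Nfkbia at 87.0 and 80.0 (1.09, 1.0 to 1.18). The antimicrobial Lcn2, induced by IL-17, rested on 3 fragments and 1.

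Receptors were low in both libraries. Of the 12 signalling receptors with at least 10 fragments, 1 had an interval apart from 1. That was Ccr9, the receptor of Ccl25 on small intestinal T cells, at 2.01 FPKM in the knockout library and 1.30 in the wild-type library, a ratio of 1.55 (1.06 to 2.26) on about 77 and 48 fragments. With the shortest annotated transcript its interval included 1. A transcript on the opposite strand overlaps its exons by up to 1876 nt. The summed level of the 18 signalling receptors was 15.2 FPKM in the knockout library and 15.3 in the wild-type library.

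Cxcr4, the receptor of Cxcl12, was the most abundant receptor, at 4.0 FPKM in the knockout library and 4.98 in the wild-type library (0.803, 0.566 to 1.13, about 64 and 77 fragments). The other receptor of Cxcl12, the scavenger Ackr3, listed as Cxcr7, was at 0.208 and 0.0865 FPKM, about 6 and 2 fragments (2.41, 0.517 to 29.3). Cxcr6, the receptor of Cxcl16, was at 2.35 FPKM in the knockout library and 2.80 in the wild-type library (0.838, 0.534 to 1.31), and Cxcr5, the B cell receptor of Cxcl13, at 1.60 and 1.58 FPKM (1.02, 0.631 to 1.64). Cx3cr1, the receptor of Cx3cl1, was at 0.645 and 0.437 FPKM (1.48, 0.738 to 3.04). For Cxcl16, Cx3cl1 and Cxcl13, whose intervals were below 1, the receptor's interval thus included 1.

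The rest of the receptors were under 1 FPKM in both libraries, which lie near the limits of these fragment numbers. Ccr1, a receptor of Ccl5, was at 0.527 FPKM in the knockout library and 0.469 in the wild-type library. Ccr7, the receptor of Ccl19 and Ccl21, was at 0.615 and 0.522 FPKM, and Ccr6, the receptor of Ccl20 that also marks Th17 cells, at 0.438 and 0.753 FPKM (0.582, 0.155 to 2.09). Xcr1, the receptor of Xcl1, rested on 7 and 6 fragments, Ccr10, the receptor of Ccl28, on 5 and 4, Ccr2 of monocytes on 2 and 4, Ccr4 on 2 and 1, and Ccr3 of eosinophils on 1 in each. Ccr8 was at 0 in both libraries.

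Many members lie in clusters of related genes, here runs with gaps of at most 500 kb. The largest holds 7 receptor genes, among them Ccr9, Cxcr6, Xcr1, Ccr1, Ccr3 and Ccr2, within 469 kb of chromosome 9, of which Ccr9 alone had an interval apart from 1. On chromosome 11, Ccl5, Ccl9, Ccl6, Ccl3 and Ccl4 lie within 139 kb, where Ccl5 was higher, Ccl6 lower and the intervals of the other 3 included 1. The monocyte and eosinophil attractants Ccl2, Ccl7, Ccl11, Ccl12, Ccl8 and Ccl1 lie within 270 kb of the same chromosome and each had at most 6 fragments in both libraries together.

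Among the atypical receptors Ccrl2, which binds chemerin and presents it to leukocytes, was higher. It was at 1.56 FPKM in the knockout library and 0.647 in the wild-type library, a ratio of 2.41 (1.20 to 5.16) on about 30 and 12 fragments. Chemerin, the product of Rarres2, was also higher, at 10.5 FPKM in the knockout library and 5.54 in the wild-type library (1.89, 1.18 to 3.10). Ackr4, listed as Ccrl1, which scavenges CCL19, CCL21 and CCL25, was at 0.676 and 0.432 FPKM (1.57, 0.658 to 4.16). Ackr2, listed as Ccbp2, rested on 1 and 3 fragments and Ackr1, listed as Darc, on none and 1.

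Other genes of the pathway were compared as lists. Of 18 kept genes of chemokine receptor signalling none was 2-fold apart on the log2(FPKM + 1) scale, with 10 above 0 and 8 below. The receptor kinase gene Adrbk2 was at 1.81 FPKM in the knockout library and 0.810 in the wild-type library, a ratio of 2.23 (1.58 to 3.15) without the added 1, and the arrestin genes went opposite ways, Arrb2 at 7.02 and 4.93 and Arrb1 at 35.0 and 44.0. Of 13 kept genes that cleave chemokines or hold them on matrix, 8 were above 0 and 5 below, and none reached 2-fold on that scale. Without the added 1, the matrix protease Mmp2, at 1.26 and 0.217 FPKM, and the proteoglycan Hspg2, at 2.04 and 0.749, were over 2-fold higher, while the brush border peptidase Mme was at 231 and 387 and the syndecan Sdc1 at 30.8 and 42.8. Dpp4, which inactivates CXCL12, was at 233 FPKM in the knockout library and 282 in the wild-type library (0.827, 0.807 to 0.848). Of the 6 kept homing adhesion genes 5 were above 0, led by Itgb7 at 7.25 and 3.49 FPKM and Itgae, the integrin of intraepithelial lymphocytes, at 11.1 and 7.61. The platelet chemokine Pf4 rested on 3 fragments and 1, and Ppbp was at 0 in both.

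**Figure D4:**
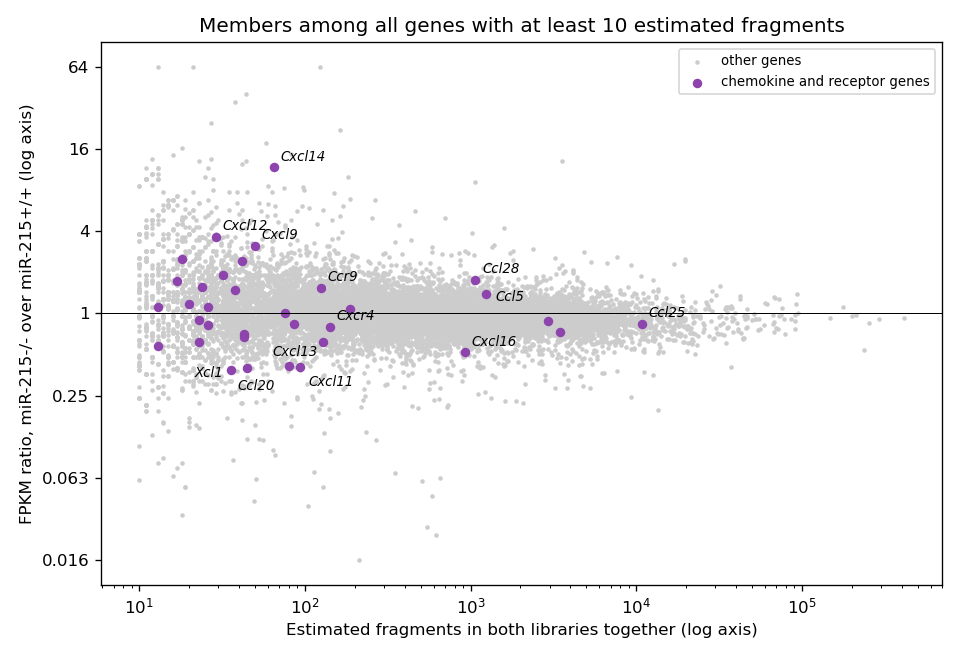
FPKM ratio of the miR-215-/- library over the miR-215+/+ library against the estimated fragments in both libraries together (both axes log), for genes above 0 in both libraries with at least 10 fragments; members are purple and other genes grey, with grey points beyond 64 drawn at 64. Ccl25 and Cxcl16 lie to the right, on 924 or more fragments, while Cxcl12 rests on 29 and lies toward the left, where the grey points spread most.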

How the data were processed

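Both libraries are of small intestinal epithelial cells, 1 from miR-215-/- and 1 from miR-215+/+ mice, made with a stranded kit that selects polyadenylated RNA, per the labels' protocols. The deposited values are FPKM, 1 for each gene in a library, for which the authors used Cuffnorm 2.2.1, TopHat2 2.0.13, SAMtools 0.1.19 and Bowtie2 2.2.3 with mm10, per the submitters' processing notes; no header names the unit, which was inferred from Cuffnorm and the values. Annotation, settings, strandedness of counting and library scaling were not stated there. Summed FPKM was 683884 in the knockout library and 750631 in the wild-type library.

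No count test was run, as counts were not used here. From 368 single-transcript genes coding for protein that lie under 0.5 FPKM in the wild-type library, the worth of 1 fragment and the nt lost at transcript ends were chosen so that values fell on whole fragments. The knockout value is 0.963 of it, the commonest ratio, found in 246 of 602 genes under 0.1 FPKM in both. Of 36 member values under 10 fragments with 1 linked transcript, 31 were within 0.1 of a whole number. Lengths are the median of GENCODE M21 transcripts linked to RefSeq, matched for 61 of the 62 members. Coordinates are GRCm38, counted from 1. The steps were tested on simulated data. Python 3.11.15, pandas 2.3.3 and SciPy 1.17.1 were used.

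The log2 difference has a pseudocount of 1 FPKM and a minimum of 1 FPKM in at least 1 library. Members named are those with at least 1 FPKM in a library, Cxcl12, Cxcr4 and Cxcr7, and those under it with an interval apart from 1; the others are named with their fragments. From the other lists the text draws on some of the 4 largest differences and the most abundant gene. It leaves out others of these, such as Des, Acta2, Col6a1, Cd79b, Ms4a1 and Pax5. A few further markers (Pdgfra, Pdgfrb, Dcn, Cr2, Cd8a, Cd3g, Dpp4, Lcn2, Pf4, Kdr, Emcn, Zmynd15) were chosen after their values were seen. Members and lists were chosen with earlier results of these data known. A receptor that enters the counts and sums is not reported here by itself. Pseudocount, filter, scaling and transcript length were varied.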

Additional observations from a re-analysis of the deposited data

How the results depend on the processing

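The number of members at least 2-fold apart followed the pseudocount, since most are low. With 0.1 FPKM, 6 of 27 members were higher and 4 lower, beside 339 and 361 of 11504 genes. With 5 FPKM, 0 and 0 members were, beside 60 and 120 genes. With a minimum of 5 FPKM, 11 members were left, 0 higher and 3 lower, beside 97 and 180 of 8275 genes. With equal summed FPKM or equal upper quartiles, 2 of 27 members were higher and 1 lower. All genes gave 209 and 185 of 11601 with equal sums and 207 and 188 of 11594 with equal upper quartiles. The counts of all genes thus moved with the setting too. The median of the epithelial ligands was -0.35 with a minimum of 5 FPKM, -0.091 with equal sums and -0.10 with equal upper quartiles. Without a filter the median of all members was 0.01 and that of the leukocyte ligands 0.06, both above 0. The Cxcl12 ratio was 1.11 after adding 5 FPKM to both values, 2.80 after adding 0.1 and 4.0 with equal sums. Chosen after the data were seen, other scalings left 8 members with an interval above 1 and 8 below, and other transcript lengths left 7 or 8 and 9. No 2-fold member changed sign, but none of the alternatives run could reverse a 2-fold difference. No paired analysis was possible because each genotype has 1 library. Depth limits the low members: 26 of the 62 members had fewer than 10 fragments in both libraries together.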

Other observations

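The endothelial receptor gene Tek was at 0.156 FPKM in the knockout library and 1.02 in the wild-type library, about 7 and 43 fragments (ratio 0.153, interval 0.0595 to 0.352), while Plvap was at 3.77 and 0.454 FPKM and the endothelial markers Kdr and Emcn were at 0.132 and 0.394 FPKM in the knockout library and listed at 0 in the wild-type library.

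The 11 copies of TAGGTC in the longest 3' UTR of Cxcl16 are more than nearly all genes hold: 3 of 21005 genes, Cxcl16 among them, had 11 or more. That limit was set to the count of Cxcl16 itself, so the rarity is a description only. Whether the copies form a repeated sequence was not tested.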
